A study of Homo sapiens with 4 samples.

Results

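The Notch genes examined here are 3 receptors (NOTCH1, NOTCH2 and NOTCH3), 4 ligands (JAG1, JAG2, DLL1 and DLL3) and 3 target genes of the HES/HEY family (HES1, HES6 and HEY1). They were taken by gene name from the counts of 4 RNA-seq libraries of HGC-27, a human gastric cancer (GC) cell line, and are 10 of the 31907 gene names with a count in any library. For 2 of the libraries, the controls, the cells received PBS, and for the other 2 they received recombinant IL-17B (rIL-17B), a cytokine of the IL-17 family, at 200 ng/ml, for 48 h in each case. The labels give the same line for all 4 libraries and name no other agent, but whether rIL-17B replicate 1 was the same material as the other 3, from which it stood apart as described below, could not be told from the files. The labels give a replicate number to each library but do not say whether replicates were separate cultures. The p-values therefore rest only on the spread between these libraries, part of which the test estimates from all genes together. Smart-seq2 was used for the libraries, a method that copies polyadenylated RNA from an oligo-dT primer and amplifies the cDNA by PCR. A level is given below as CPM, the count per 1000000 counts of its library.

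Notch signaling passes between touching cells. A ligand of the Jagged (JAG) or Delta-like (DLL) type on one cell binds a Notch receptor on its neighbor, an ADAM protease and then the γ-secretase complex cut the receptor, and the freed intracellular domain enters the nucleus, where it joins the DNA-binding protein RBPJ and a Mastermind (MAML) coactivator. HES and HEY genes, which encode basic helix-loop-helix repressors, are the best known targets. The pathway takes part in stem cell maintenance and cell fate choice in the gut and the stomach, and NOTCH3 is known for its expression in vascular smooth muscle cells and pericytes.

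RBPJ binds the core letters TGGGAA, within longer sites written TGTGGGAA or CGTGGGAA. Those letters were searched on both strands in the 250 bases before the start of each gene in RefSeq (GRCh38.p14), where 7 of the 10 Notch genes had an entry. HES1 was the only gene of these 7 with TGGGAA, and 20.8% of all 35116 entries hold it. In HES1 (chr3:194135898-194136147, plus strand) the core lies 84 and 70 bases before the start, the first time within TGTGGGAA, which 2.14% of the entries hold in either of its spellings. A pair of cores or more was found in 2.90% of the entries. HES4, a target gene outside the 10 (chr1:1000098-1000347, minus strand), is shown beside it because it carries TGTGGGAA at a similar distance, 78 bases before the start. HES5, which is not shown, holds a longer site at 82 bases before the start. NOTCH3 (chr19:15200996-15201245, minus strand) is shown because its counts differed most between the libraries; its window holds none of these letters. The sequences run 5′ to 3′ on the strand of the gene, and capitals mark the RBPJ letters.
HES1: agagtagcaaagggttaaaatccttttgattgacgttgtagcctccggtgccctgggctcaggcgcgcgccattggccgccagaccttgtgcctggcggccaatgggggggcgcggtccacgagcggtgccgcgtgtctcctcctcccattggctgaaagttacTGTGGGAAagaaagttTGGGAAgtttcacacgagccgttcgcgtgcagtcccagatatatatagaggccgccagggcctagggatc
HES4: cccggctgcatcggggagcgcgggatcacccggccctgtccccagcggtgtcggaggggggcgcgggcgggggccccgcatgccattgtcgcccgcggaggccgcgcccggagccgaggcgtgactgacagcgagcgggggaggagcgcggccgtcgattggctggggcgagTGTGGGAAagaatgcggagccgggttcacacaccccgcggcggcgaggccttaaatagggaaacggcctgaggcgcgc
NOTCH3: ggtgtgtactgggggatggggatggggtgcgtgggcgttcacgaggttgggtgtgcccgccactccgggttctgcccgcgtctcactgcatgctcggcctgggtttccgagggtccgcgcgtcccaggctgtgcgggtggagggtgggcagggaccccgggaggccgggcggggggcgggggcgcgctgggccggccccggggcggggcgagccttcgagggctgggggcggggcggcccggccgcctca
HES proteins themselves bind N-boxes, CACNAG, and the HES1 window holds 3 of them, at 165, 132 and 58 bases before the start, where 32.0% of the entries hold at least 1. Of the 13 genes of the HES, HEY, BHLHE and HELT group considered here, 12 had an entry, 8 of them held TGGGAA and 5 the longer site (HES1, HES4, HES5, HEY2 and HEYL). A match of letters is a description and does not show binding in these cells.

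The libraries held between 12888029 and 17555879 counts, so that 3 counts correspond to 0.171 to 0.233 CPM; such floors and the intervals below cover counting error only, since PCR copies cannot be told from separate molecules. rIL-17B replicate 1 stood apart from the other 3 libraries: 21.1% of the 16361 genes tested differed at least 2-fold between the 2 rIL-17B libraries, against 3.15% between the 2 PBS libraries. The markers of other cell types moved with it. The 10 fibroblast and mesenchyme markers summed to 52361 and 53462 CPM with PBS, 989 CPM in rIL-17B replicate 1 and 44716 CPM in replicate 2, and all 10 were at most 0.5 times the PBS mean in replicate 1. The 10 neural progenitor and glia markers summed to 674 and 1064 CPM with PBS and to 27.6 and 475.0 CPM with rIL-17B, and 6 of them were at 0 counts in replicate 1: OLIG1, OLIG2, PAX6, PTPRZ1, NKX2-2 and SOX10, the last at 0 in every library. The 6 endothelium markers summed to 32.9 and 40.8 CPM with PBS and to 1.16 and 27.1 CPM with rIL-17B, with KDR at 0 in replicate 1. The summed level of the gastric epithelium list was higher, at 1820 and 1003 CPM against 779 and 787 CPM, nearly all of it KRT8 and KRT18. Its other members did not share one direction. EPCAM was higher in both rIL-17B libraries, with 54 and 39 counts in the controls and 78 and 68 after rIL-17B. KRT19 had 47 and 43 counts in the controls but 1 and 58 after rIL-17B. MUC5AC had 2 and 19 against 0 and 2, and CDH1 had at most 11 in any library. The library protocol in the labels speaks of monocytes, but the 9 monocyte and leukocyte markers summed to only 8.55 to 10.8 CPM, with CSF1R the most abundant of them in every library, at 62 and 72 counts in the controls and 119 and 108 after rIL-17B. The defining markers CD14 and PTPRC had at most 23 and 47 counts, and 6 of the 9 were at 0 in rIL-17B replicate 1: PTPRC, LYZ, ITGAM, FCGR3A, TYROBP and CD163. The part of these differences in the values below was not tested, and the log2 fold changes of the 10 genes are therefore given with and without rIL-17B replicate 1. In such bulk libraries, fewer cells of a type and less RNA per cell cannot be told apart.

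Each of the 3 receptors had lower levels in the rIL-17B libraries than in either control, as did 27.5% of all genes tested. None of the 3 receptors passed the test. NOTCH2 (chromosome 1, 119911553 to 120069626), the most abundant of them, had 425.8 and 423.5 CPM in the controls, against 246 and 394 CPM in the respective rIL-17B replicates 1 and 2. The PBS libraries lay close together (424.6 ± 1.62, SD, n = 2) and the rIL-17B libraries far apart (320.3 ± 105, SD, n = 2), and the log2 fold change was -0.46 (standard error 0.32, adjusted p = 0.661 in edgeR's quasi-likelihood test). It was -0.11 without rIL-17B replicate 1 (standard error 0.08, adjusted p = 0.617 in edgeR's test). NOTCH2 has near-identical partial copies in the genome, of which the files list NOTCH2NL with 15 to 33 counts, so reads may be shared between them.

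NOTCH1 (chromosome 9, 136494433 to 136545786), the receptor best known from T-cell leukemia, showed the tightest rIL-17B values of the 10 genes. It had 57.4 and 67.1 CPM in the controls and 53.4 and 53.5 CPM after rIL-17B, so that the gap between the groups was smaller than the gap between the PBS libraries. The log2 fold change was -0.29 with all libraries and -0.22 without rIL-17B replicate 1 (adjusted p = 0.661 and 0.324 in edgeR's test).

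NOTCH3 (chromosome 19, 15159038 to 15200981) was nearly missing from rIL-17B replicate 1. Its counts were 1235 and 1123 with PBS, 2 in rIL-17B replicate 1 and 1116 in replicate 2, which correspond to 77.7, 87.1, 0.137 and 63.6 CPM. The 2 counts are 0.167% of the pooled PBS level, with an exact 95% counting interval of 0.0202% to 0.604%. The other rIL-17B library was at 77.6% of the pooled PBS level (72.2% to 83.4%), below both PBS libraries. With the spread between the rIL-17B libraries this large, the log2 fold change of -1.37 had a standard error of 2.095 (adjusted p = 0.749 in edgeR's test). Without rIL-17B replicate 1 the log2 fold change was -0.38 with a standard error of 0.10, and NOTCH3 passed the threshold (adjusted p = 0.0112 in edgeR's test); in that fit the single rIL-17B library is assumed to vary like the PBS libraries. Of the 2792 tested genes with at least 1000 counts in each of the other 3 libraries, NOTCH3 was 1 of 28 (1.00%) with at most 3 counts in rIL-17B replicate 1, a limit chosen after its values were seen. TAGLN, a marker of smooth muscle cells and fibroblasts, went the same way, with 14848 and 12352 counts in the controls and 129 and 14030 after rIL-17B, and its relation to NOTCH3 was not tested. It was not alone, as all 10 fibroblast and mesenchyme markers were at most 0.5 times the PBS mean in rIL-17B replicate 1.

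Per length, the shares of the receptors differed in that library from the other 3. Of the summed CPM per kb of the 4 receptor genes, NOTCH3 held 21.0% and 22.5% with PBS, 0.0734% in rIL-17B replicate 1 and 19.1% in replicate 2. NOTCH2 held 64.5% and 61.2% with PBS and 73.8% and 66.1% with rIL-17B, and NOTCH1 held 14.1% and 15.7% with PBS and 25.9% and 14.5% with rIL-17B. NOTCH4, the receptor best known from endothelium, never exceeded 0.541% of the sum.

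Among the ligands, JAG1 was lower in both rIL-17B libraries, DLL1 had no count in rIL-17B replicate 1, and JAG2 and DLL3 differed between the groups by less than or about as much as within them. JAG1 (chromosome 20, 10637684 to 10673999), the ligand with by far the highest level, had 74.5 and 103.9 CPM in the controls, against 34.8 and 65.6 CPM in the respective rIL-17B replicates 1 and 2. The groups did not overlap, although the PBS libraries differed as well (89.2 ± 20.8 against 50.2 ± 21.8 CPM, SD, n = 2 each). The log2 fold change was -0.88 (standard error 0.43, adjusted p = 0.661 in edgeR's test). Without rIL-17B replicate 1 it was -0.44, with a standard error of 0.10 that rests in part on the spread of other genes. In CPM, rIL-17B replicate 2 lay closer to PBS replicate 1 than the PBS libraries lay to each other. An antisense gene that shares exonic sequence with JAG1 had at most 1 count in any library.

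DLL1 (chromosome 6, 170282206 to 170306565), a Delta-type ligand, had 43 and 39 counts with PBS, 0 in rIL-17B replicate 1 and 30 in replicate 2. Its level was 2.70 and 3.03 CPM with PBS and 1.71 CPM in rIL-17B replicate 2. Taking 3 counts as the floor of that library, DLL1 was at least 14.0-fold lower in rIL-17B replicate 1 than the PBS mean. In replicate 2 it was at 59.6% of the PBS mean, and the exact 95% counting interval against the pooled PBS libraries was 38.1% to 92.2%. The log2 fold change without rIL-17B replicate 1 was -0.74 (standard error 0.41), and the adjusted p in edgeR's test was 0.674 with all libraries and 0.423 without that library.

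JAG2 (chromosome 14, 105140981 to 105168824) had 5.91 and 4.58 CPM in the controls and 7.94 and 5.98 CPM after rIL-17B. The lower rIL-17B library was thus within 0.1 CPM of the higher PBS library, and the log2 fold change of 0.33 had a standard error of 0.28 (adjusted p = 0.665 in edgeR's test). It was 0.17 without rIL-17B replicate 1 (adjusted p = 0.843 in edgeR's test). DLL3 (chromosome 19, 39498895 to 39508481), a divergent Delta-type protein that is known to act as an inhibitor inside the cell, had 5 and 14 counts with PBS and 9 and 13 with rIL-17B. Its groups overlapped, and the log2 fold change of -0.08, or 0.13 without rIL-17B replicate 1, had a standard error of 0.77 and 0.80 respectively, so a difference was not detectable at this depth.

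The 3 target genes did not move together: HES1 and HES6 were lower and HEY1 was higher in both rIL-17B libraries. Of all genes tested, 27.5% were lower and 31.5% were higher in both. HES1 (chromosome 3, 194136145 to 194138732), the target with the RBPJ letters shown above, had 14.4 and 16.6 CPM in the controls and 11.2 and 10.6 CPM after rIL-17B. The rIL-17B libraries lay close together (10.9 ± 0.395 CPM, SD, n = 2), and the gap between the groups was larger than the spread within either. The log2 fold change was -0.58 (standard error 0.18) with an unadjusted p of 0.0352 from edgeR, the smallest of the 10 genes, and an adjusted p of 0.661. Leaving out rIL-17B replicate 1 left the log2 fold change at -0.55 (adjusted p = 0.0622 in edgeR's test).

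HES6 (chromosome 2, 238238267 to 238240662), which encodes a relative of HES1 that is known to oppose it, had 118 and 123 counts with PBS and 40 and 100 with rIL-17B. In CPM this was 7.42 and 9.54 against 2.74 and 5.70, and the log2 fold change was -1.05 (standard error 0.51, adjusted p = 0.661 in edgeR's test). Without rIL-17B replicate 1 the log2 fold change was -0.57 (adjusted p = 0.193 in edgeR's test).

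HEY1 (chromosome 8, 79764010 to 79767863), a repressor known from blood vessel and bone development, was the target gene with the highest level. Its PBS libraries were nearly equal at 36.0 and 35.8 CPM, and its rIL-17B libraries had 60.9 and 38.6 CPM. Most of the difference thus came from rIL-17B replicate 1, at 170% of the pooled PBS level (exact 95% counting interval 155% to 186%), whereas replicate 2 was at 107% (97.3% to 118%). The log2 fold change was 0.39 (standard error 0.22, adjusted p = 0.661 in edgeR's test) and 0.10 without rIL-17B replicate 1 (adjusted p = 0.797 in edgeR's test).

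**Figure D1:**
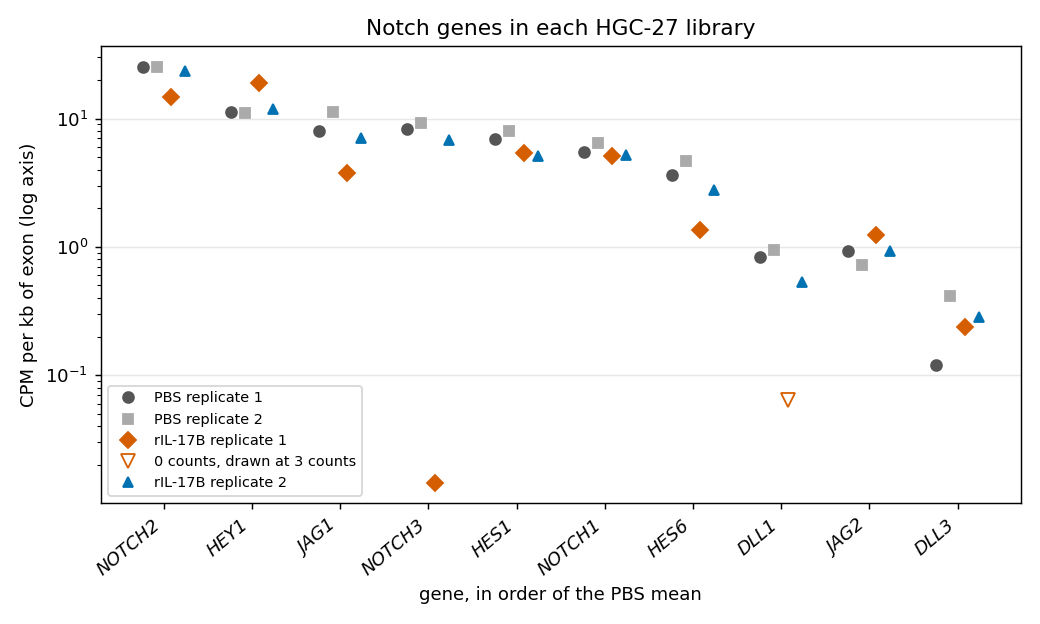
CPM per kb of exon (log axis) of the 10 Notch genes, 1 point per library, in the order of the PBS mean; an open triangle marks 0 counts, drawn at 3 counts. NOTCH2 is highest at 25.3 and 25.2 with PBS, and NOTCH3 and DLL1 drop out of the pattern in rIL-17B replicate 1 alone.

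Because long genes collect more reads, levels were compared between genes as CPM per kb of exon. With PBS the order was NOTCH2 (25.3 ± 0.0966, SD, n = 2), HEY1 (11.1 ± 0.0564), JAG1 (9.59 ± 2.23), NOTCH3 (8.77 ± 0.714), HES1 (7.52 ± 0.757), NOTCH1 (5.53 and 6.47 in its PBS libraries), HES6 (4.16 ± 0.737), DLL1 (0.888 ± 0.0707), JAG2 (0.820 ± 0.147) and DLL3 (0.268 ± 0.208). The PBS libraries of JAG1 overlapped with those of HEY1 above it and of NOTCH3 below it, and those of DLL1 overlapped with those of JAG2, so these neighbors in the order could not be told apart. JAG1 was thus the only ligand at the level of the receptors and targets. In rIL-17B replicate 1 the order was headed by HEY1 at 18.8 CPM per kb, ahead of NOTCH2 at 14.7, while NOTCH3 stood at place 9 of 10. In rIL-17B replicate 2 NOTCH2 led at 23.5 CPM per kb, followed by HEY1 at 11.9, as in PBS.

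**Figure D2:**
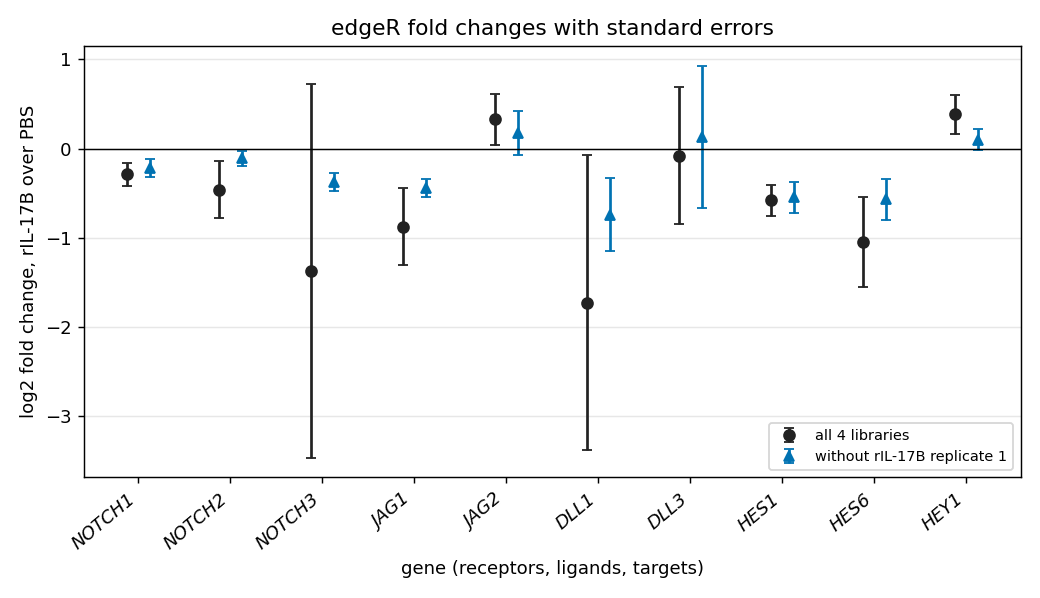
log2 fold change of rIL-17B over PBS with its standard error from edgeR, for all 4 libraries (circles) and without rIL-17B replicate 1 (triangles). The standard errors of NOTCH3 (2.095 to 0.10) and JAG1 (0.43 to 0.10) shrink when that library is left out, while HES1 stays near -0.58 and -0.55.

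Over the whole set, 0 of the 10 genes passed the threshold of 0.05 on the adjusted p (edgeR, quasi-likelihood), as did 0 of the 16361 genes tested (0%). An unadjusted p under 0.05 in edgeR was found for 1 of the 10, HES1, and for 1.38% of the 16361 genes tested. In DESeq2 it was found for 2 of the 10, HES1 and JAG1. There the share was 1.71% of 31907 genes, which were not filtered for low counts, so the 2 shares are not on the same set. The median log2 fold change was -0.52 over the 10 genes and -0.03 over all genes tested. These medians were -0.30 and -0.010 without rIL-17B replicate 1. With all libraries, 8 of the 10 were below 0, as were 8608 of the 16361 genes tested. The groups did not overlap in CPM for 9 of the 10 genes, where 59.0% of all genes did not overlap: 7 of the 10 were lower with rIL-17B (27.5% of all genes) and 2 were higher (31.5%). With rIL-17B replicate 2 alone, the same counts were 7 genes below both PBS libraries (36.1% of all genes) and 2 above both (37.0%). In rIL-17B replicate 1, 4 of the 10 were at most 0.5 times the PBS mean (NOTCH3, JAG1, DLL1 and HES6), against 20.7% of all genes, and 0 of the 10 were at least 2-fold higher, against 4.14%. In replicate 2 these counts were 0 of the 10 against 2.08% and 0 of the 10 against 0.538%. Without rIL-17B replicate 1, 2 of the 10 genes passed the threshold, JAG1 and NOTCH3, both lower, and 0 as higher (2.95% of all genes passed, 2.30% as lower and 0.643% as higher). In that same fit the median log2 fold change of the markers tested was -0.93 for neural and -0.21 for fibroblast genes. It was -0.20 for endothelium, -0.27 for leukocyte and 0.17 for gastric epithelium genes. The part of these marker differences in the values of JAG1 and NOTCH3 was not tested. Without rIL-17B replicate 2, 8 passed (55.1% of all genes), 7 as lower (31.9%) and 1, HEY1, as higher (23.2%). With 2 libraries on each side, the smallest two-sided p of an exact permutation test is 0.333, so none was run for single genes.

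The genes next to NOTCH3 and DLL1 were also examined, a comparison chosen after the values of both were seen. For each, the 3 nearest protein-coding genes on either side with a mean of at least 10 counts were taken, leaving out genes that overlap it. Around NOTCH3, within 380 kb, the 6 neighbors in rIL-17B replicate 1 were between 49.8% (SYDE1) and 215% (ADGRE2, an adhesion receptor of leukocytes) of the PBS mean, while NOTCH3 itself was at 0.166%. ILVBL, at a distance of 33.3 kb, was at 104%. Around DLL1, within 557 kb, the 6 neighbors were between 82.1% (ERMARD) and 151% (PSMB1, a proteasome subunit), and FAM120B, which overlaps DLL1 on the other strand, had 595 counts in rIL-17B replicate 1 against 655 and 556 with PBS. The near absence of NOTCH3 and DLL1 from that library was not shared by the genes beside them.

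The rest of the pathway was followed in 68 further genes, of which 66 had a count and 57 were tested. Of the 57, 0 passed the threshold of 0.05 on the adjusted p in edgeR, and 0 had an unadjusted p under 0.05 (0 also in DESeq2). With rIL-17B, 33 had a log2 fold change below 0 and 24 above, against 8608 and 7753 of the 16361 genes tested. The median of the 57 was -0.05, close to the -0.03 of all genes. The groups did not overlap for 35 of the 57: 21 lower (27.5% of all genes tested) and 14 higher (31.5%). Without rIL-17B replicate 1, 1 of 59 passed, DTX3, against 2.95% of all genes.

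Genes that cut and complete the receptor were expressed throughout. Among the γ-secretase genes, PSEN2, which encodes a catalytic subunit, had 17.5 and 19.2 CPM in the controls against 20.7 and 18.2 CPM after rIL-17B. NCSTN, which encodes the subunit that receives the substrate, had 117 and 131 against 102 and 113 CPM, and APH1A had 84.2 and 86.6 against 94.4 and 82.4 CPM. APH1B had 18.6 and 21.6 against 9.10 and 18.3 CPM, and PSENEN had no more than 23 counts in any library. PSEN2 and APH1A overlapped between the groups, and the adjusted p of each gene named here was 0.661 or more (edgeR). ADAM10, which encodes the sheddase that makes the first cut, had 162.5 and 161.6 CPM in the controls and 108 and 161.2 CPM after rIL-17B.

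The nuclear partners showed no common direction. RBPJ had 102 and 96.1 CPM in the controls and 72.4 and 96.3 CPM after rIL-17B, so the groups overlapped. MAML1 also overlapped, at 63.4 and 65.6 against 69.3 and 61.6 CPM. MAML2 was lower in both rIL-17B libraries, at 30.1 and 35.5 against 14.1 and 26.1 CPM, and MAML3 higher, at 30.1 and 33.3 against 54.9 and 35.4 CPM, and neither passed the test (adjusted p = 0.661 each in edgeR's test).

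The largest log2 fold changes of the list, none past the threshold with all libraries, were mostly those of genes low in rIL-17B replicate 1, with PSENEN and HES2 as exceptions whose rIL-17B libraries were alike. DTX3, a Deltex-family ubiquitin ligase, had 409 and 475 counts with PBS, 0 in rIL-17B replicate 1 and 316 in replicate 2 (log2 fold change -1.80, adjusted p = 0.706 in edgeR's test), and without replicate 1 its log2 fold change was -0.79 (adjusted p = 3.15e-06 in edgeR's test). BHLHE41, a circadian repressor related to HES proteins, had 276 and 307 counts with PBS and 10 and 259 with rIL-17B. NOTCH4 had 25 and 28 counts with PBS and 4 and 22 with rIL-17B, and CHAC1, an enzyme of glutathione breakdown that is known to inhibit Notch maturation, had 583 and 473 against 109 and 528. Among the Fringe glycosyltransferases that tune ligand choice, LFNG had 10.2 and 18.9 CPM in the controls and 5.61 and 9.91 CPM after rIL-17B, and RFNG had 27.0 and 30.5 against 13.7 and 25.1 CPM. TLE1, a Groucho-family corepressor that HES proteins recruit, had 17.5 and 23.7 against 6.09 and 16.9 CPM, and DTX3L had 34.8 and 35.1 against 16.3 and 30.9 CPM. HES2 was the only gene of these 12 that was higher with rIL-17B, and here both libraries were above the controls, with 32 and 34 counts against 17 and 13. Its log2 fold change was 0.91, with a standard error of 0.33 (adjusted p = 0.661 in edgeR's test), and 0.89 without rIL-17B replicate 1.

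Without that library the log2 fold changes of most of these genes were closer to 0. For BHLHE41 the value was -0.47 in place of -1.42, for NOTCH4 -0.57 in place of -1.30, and for CHAC1 -0.29 in place of -0.996. LFNG was at -0.54 in place of -0.95, TLE1 at -0.28 in place of -0.87, MAML2 at -0.33 in place of -0.75, RFNG at -0.20 in place of -0.62, DTX3L at -0.18 in place of -0.62 and APH1B at -0.13 in place of -0.60. PSENEN was the exception besides HES2, at -0.61 in place of -0.55, and of the genes in this paragraph 0 passed the threshold in edgeR's test without that library.

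HES4, whose promoter window is shown above with that of HES1, had 5.60 and 5.74 CPM in the controls and 4.72 and 4.90 CPM after rIL-17B (log2 fold change -0.30, standard error 0.25). Like HES1, and like 27.5% of all genes tested, it was lower in both rIL-17B libraries, which differed little from each other. A relation to the promoter letters was not tested. HES5 had at most 2 counts and HEYL at most 10 in any library, HEY2 had between 19 and 30, and HES3 and HELT had none. NRARP, a feedback inhibitor induced by Notch, had 3.77 and 4.11 CPM in the controls and 5.06 and 3.87 CPM after rIL-17B and overlapped between the groups. These genes and ADAM10 were named after their values were seen, for their role or their promoter.

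**Figure D3:**
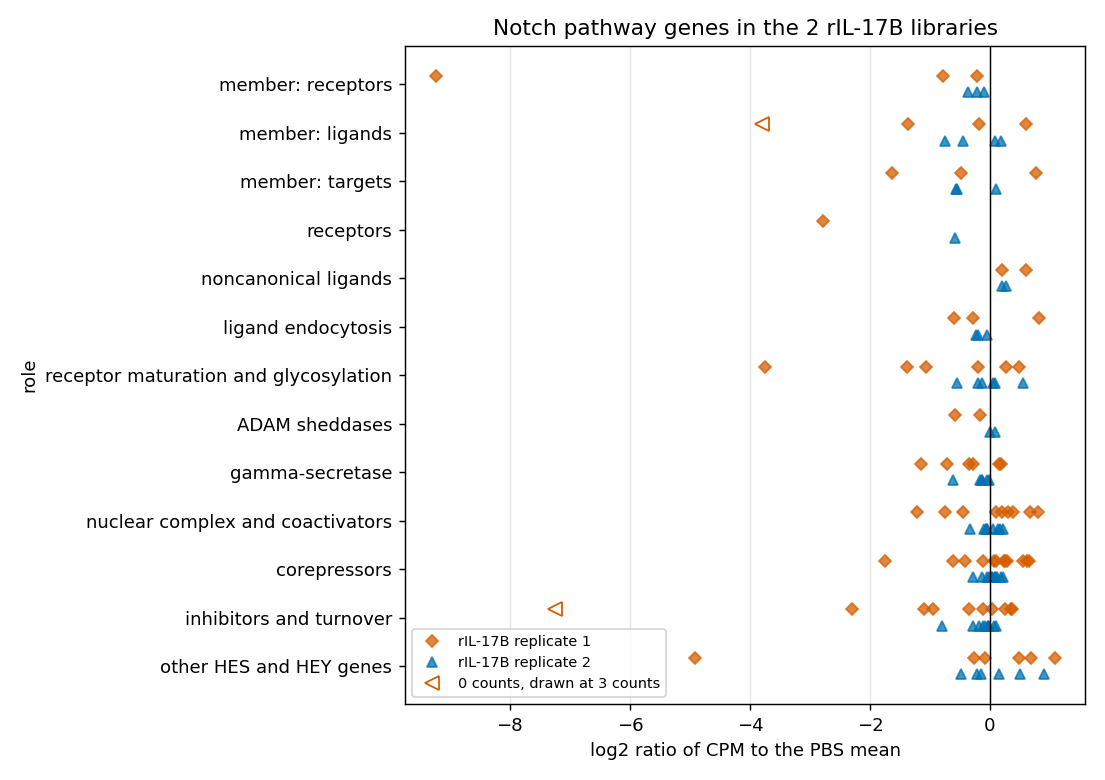
log2 ratio of CPM to the PBS mean in each rIL-17B library for the 10 Notch genes and the 57 tested genes of the wider pathway, grouped by role; an open triangle marks 0 counts, drawn at 3 counts. Replicate 1 spreads widely, down to NOTCH3 at -9.23, whereas in replicate 2 no gene is at 0.5 times the PBS mean or less.

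The profile of the most abundant gene of each role over the 4 libraries was compared with 10909 genes of at least 100 counts on average, by the root mean square difference of log2(CPM + 0.5) after centering each gene. Nearest to JAG1 were KDM6B (0.0456), ADGRB2 (0.0495) and TINAGL1 (0.0515), which are 3 of 19 genes within 0.05 of the nearest and are not set apart from the rest of them. For NOTCH2 and HEY1 the nearest genes were not singled out, since 115 and 604 genes lay within that margin. These are descriptions over 4 libraries that share the position of rIL-17B replicate 1.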

How the data were processed

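RNA-seq was analyzed from 2 PBS and 2 rIL-17B libraries of HGC-27 cells (48 h). The authors deposited raw counts, whole numbers of reads per gene name without normalization, and genes at 0 are not listed. The submitters' processing notes name hg38, HISAT2 2.1.0, Bowtie2 2.2.3, TopHat2 and HTSeq 0.6.0 without their roles. The annotation and strand use are not given in the sources used here, so reads of overlapping antisense genes cannot be told apart.

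Between 22 and 25 rows per library whose names had become spreadsheet dates were left out, and 83 to 98 names repeated with the same count were used once. Totals were 15904594 and 12888029 counts with PBS and 14615341 and 17555879 with rIL-17B. Gene positions and exon lengths came from GENCODE 29 (GRCh38), in which 97.8% of names were found once, and promoter sequences from RefSeq (GRCh38.p14).

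Differences were tested over 16361 genes with edgeR 4.0.16 in R 4.3.3. Settings were TMM (factors 0.970 to 1.07), filterByExpr, a two-sided quasi-likelihood F test and Benjamini-Hochberg over all genes, with a threshold of 0.05. The script was first run on simulated data, with criteria for passing set only at the spread within PBS. The standard error is the log2 fold change divided by the square root of F. Counting intervals are exact (Clopper-Pearson). Alternatives were DESeq2 1.42.0, upper-quartile normalization, library totals only, no filter, at least 10 counts in every library, a threshold of 0.1, the replicate number as a block, and leaving out each library. Tables and plots were made with Python 3.11.15.

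The 10 genes and the gene lists were chosen with earlier results of these data known. Named genes were the 10, the 12 pathway genes with the largest log2 fold change, and the γ-secretase, RBPJ and MAML genes; others, and the neighbors of NOTCH3 and DLL1, were chosen after values were seen. Some genes that this rule or comparison takes in are not reported here.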

Additional observations from a re-analysis of the deposited data

How the results depend on the processing

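With all 4 libraries, 0 of the 10 Notch genes, 0 of the wider list and 0 of all genes passed in edgeR with upper-quartile normalization, library totals only, no filter, at least 10 counts in every library (which leaves 7 of the 10) or a threshold of 0.1, and in DESeq2; unadjusted p values under 0.05 were found for 226 genes in edgeR and between 161 and 879 in these settings, 547 in DESeq2. Of 57 fold changes of the 10 genes under these settings and the replicate block, 56 kept their direction. The deviations of libraries with the same number correlated at 0.0800 over 16361 genes, and the numbers were not taken to pair the libraries; with the replicate block 0 of the 10 genes, 0 of the wider list and 0 of all genes passed (173 unadjusted), and the log2 fold change of DLL3 turned from -0.082 to 0.078. Leaving out 1 library gave between 0 and 8 of the 10 genes, between 0 and 34 of the wider list and between 0 and 9489 of all genes. The count was 0 without either PBS library. It was above 0 without either rIL-17B library, and higher without replicate 2 than without replicate 1. In both of these fits the remaining spread is that of the PBS libraries, and why their counts differed was not tested. The log2 fold change of DLL3 was between -0.73 and 1.02 with 1 library left out, and turned positive without PBS replicate 2 and without rIL-17B replicate 1. Groups did not overlap for 9 of the 10 genes with totals as deposited, with TMM-scaled sizes, and with rIL-17B replicate 2 alone, the last chosen after seeing the data. With the longest transcript as length, NOTCH3 and HES1 exchanged places. Depth limits DLL3, DLL1 and PSENEN, which had few counts in every library.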
